A study of Mus musculus with 4 samples.

Results

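The response of the high-metastatic clone 4T1–HM to the iron chelator deferasirox (DFX) was read from 1 library of treated cells (HM_DFX) and 1 library of control cells (HM_Ctrl). Of the 49585 genes of the deposited FPKM matrix, 12161 had an FPKM of at least 1 in either library and were compared as the log2 ratio of FPKM + 1, HM_DFX against HM_Ctrl. FPKM counts the fragments (read pairs) of a gene scaled by exon length and by the depth of its library. 4T1 is a mammary carcinoma line of the mouse, used as a model of triple–negative breast cancer (TNBC), and both clones of the study, 4T1–HM and the low-metastatic 4T1–LM, are single–cell derivatives of it, so each stands for 1 clone. Both were grown in culture medium with fetal bovine serum, HM_DFX and LM_DFX cells with 50 μmol/L of DFX for 48 h and HM_Ctrl and LM_Ctrl cells with DMSO, the solvent of DFX, alone. RNA was poly(A)–selected, the methods also name a depletion of ribosomal RNA, and directional libraries were read as 150-bp pairs. With 1 library a condition there is no estimate of the spread between cultures, so no difference below has a test, and a gene is said to rise or fall where its log2 difference reached 2-fold.

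DFX is an oral chelator that takes iron(III) out of the labile pool of the cell. Iron is the cofactor of the prolyl hydroxylases that mark the hypoxia–inducible factors (HIF) for breakdown, of the small subunit of ribonucleotide reductase, which makes the deoxyribonucleotides for DNA replication, and of the heme and iron–sulfur proteins of the respiratory chain. A shortage of iron is sensed by the iron regulatory proteins, which bind hairpins called iron–responsive elements (IREs) in the untranslated regions of messenger RNAs, and they protect the transferrin receptor message and hold back translation of ferritin.

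The library totals solved from the FPKM were 16745608 fragments in HM_Ctrl and 14363065 in HM_DFX. Fragments recovered gene by gene made up 99.5% and 99.6% of these totals, and a gene of median level had 580 and 441 fragments. Of the 12161 genes, 878 (7.22%) rose and 1568 (12.9%) fell, and 9715 (79.9%) stayed within 2-fold. These include 553 genes under an FPKM of 1 in HM_Ctrl, which entered only through HM_DFX and so could not fall. Genes under an FPKM of 1 in HM_DFX in turn entered only through HM_Ctrl and could not rise. Of the 553, 247 (44.7%) rose. In bands of higher HM_Ctrl level, cut at FPKM 1, 5, 20 and 100, the share that rose lay between 4.03% and 5.80%. The median difference was −0.11 on the log2 scale, the middle 50% of genes lay between −0.62 and 0.36, and 111 genes rose and 166 fell by at least 4-fold. After each fold below, the exact 95% interval from the fragments is given in parentheses, which covers counting error only, and the fold is the ratio of the FPKM with no pseudocount. For 1951 of the 2446 genes that rose or fell this interval lay wholly past 2-fold. Of the 2446, 235 (9.61%) had fewer than 20 fragments in both libraries. With libraries scaled to their median ratio in place of their totals, the median of all genes moved to −0.00, and 1086 genes rose and 1310 fell. The shares of all genes without this scaling, 7.22% higher and 12.9% lower, are those to set beside the counts of each gene list below.

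**Figure D1:**
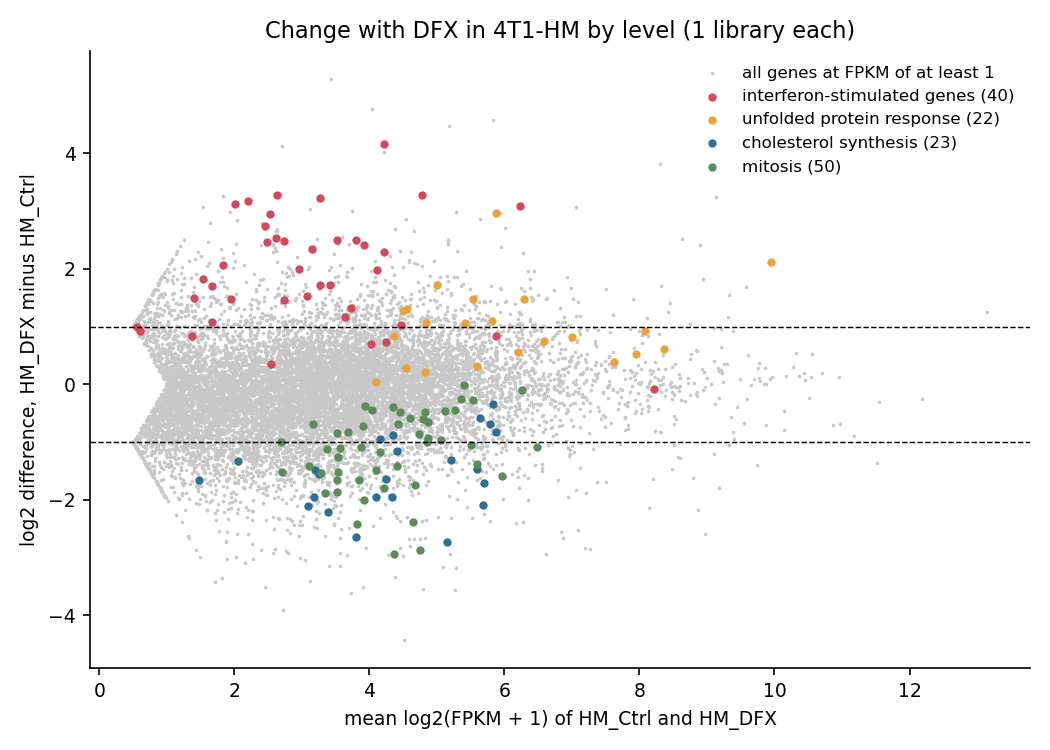
Mean level of each of the 12161 genes in the 2 HM libraries (log2 of FPKM + 1, horizontal axis) against the log2 difference of HM_DFX from HM_Ctrl (vertical axis), with dashed lines at 2-fold. Coloured points are genes of 4 lists, and 39 of the 40 interferon–stimulated genes lie above 0 while all 50 mitotic and all 23 cholesterol genes lie below 0.

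RNA of ribosomal origin was higher in HM_DFX. The mitochondrial ribosomal RNAs mt-Rnr1 and mt-Rnr2 went from 182 to 1736 and from 164 to 948, and Gm26917 and Gm42418, lincRNA genes that lie in a copy of the nuclear ribosomal RNA repeat, went from 83.8 to 1188 and from 259 to 925. Together the 4 took 0.119% of the fragments of HM_Ctrl and 0.881% of those of HM_DFX, and 0.0905% and 0.244% in LM_Ctrl and LM_DFX. Their part in the results below was not tested. Of 6 epithelial carcinoma markers 5 reached an FPKM of 1 in HM_Ctrl or HM_DFX, among them Krt18 at 773 and 251 and Cdh1 at 92.5 and 43.7. Of these 5, 4 fell (80%, beside 12.9% of all genes), or 2 with median–ratio scaling. No gene of the leukocyte, endothelial or erythroid marker lists reached an FPKM of 1, and of 5 fibroblast markers only Pdgfra did, from 3.18 to 4.51. In a bulk library, fewer cells of a kind and less RNA per cell cannot be told apart.

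Among protein–coding genes whose higher library reached an FPKM of 10, the largest rises were led by chemokines and interferon–stimulated genes, described below. Beside them stood Csrnp1 (ENSMUSG00000032515, chr9:119971163-119984658 on build mm10), a nuclear protein that is itself induced by axin, which went from 6.67 to 171, a rise of 25.6-fold (23.1 to 28.4). Stmn4 (ENSMUSG00000022044, chr14:66344296-66361680 on build mm10), a stathmin that binds tubulin, went from 0.561 to 26.3, or 46.9-fold (29.5 to 79.6) higher, and stood at 0.0332 and 1.34 in LM_Ctrl and LM_DFX. Atp13a4, a P5-type transport ATPase, went from 1.04 to 19.0 and was at 0 and 0.323 in the LM libraries. Ankrd33b rose from 2.04 to 24.0 and Fam171b from 3.73 to 37.0. Krt16, a keratin of stressed epithelium, rose from 2.14 to 84.7, and 51.9% of its sequence, counted in 31-base words, also occurs in other genes, so its value is uncertain.

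Among the largest falls were genes of cell adhesion, secretion and differentiation. Tns4 (ENSMUSG00000017607, chr11:99065678-99089306 on build mm10), a tensin that links integrins to the cytoskeleton, had 132 in HM_Ctrl and 10.2 in HM_DFX, 12.9-fold (11.99 to 13.9) lower. Ankrd1 and Ctgf, both well-known targets of the YAP coactivator, fell from 117 to 11.99 and from 22.9 to 1.87. Slpi, a secreted inhibitor of leukocyte proteases, fell from 65.1 to 5.55, 11.7-fold (9.52 to 14.6) lower, and the membrane–anchored serine protease Prss22 fell from 17.6 to 0.632. The monocarboxylate transporter Slc16a13 went from 27.2 to 1.66, and Padi1, which converts arginine in proteins to citrulline, from 30.5 to 2.56. Pcolce, which enhances the processing of procollagen, fell from 21.2 to 1.77, and the small membrane protein Snn from 12.1 to 0.528. All 15 of the largest falls were falls past 2-fold in 4T1–LM too. Exons of Padi1, Ctgf and Nrarp overlap those of a gene on the opposite strand by 32.0%, 23.2% and 79.4%, and the use of strand in the counting is not given in the sources used here.

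**Figure D2:**
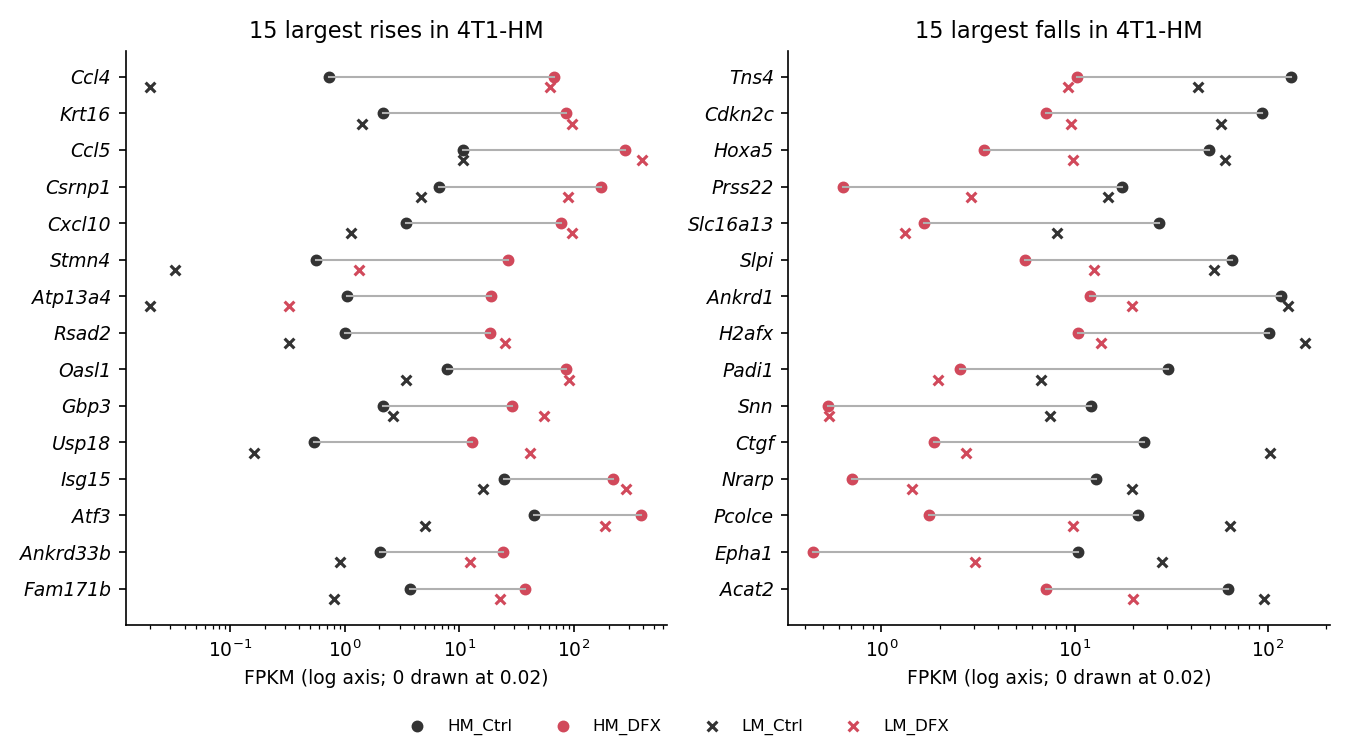
FPKM of the 15 protein–coding genes with the largest rise and the 15 with the largest fall in 4T1–HM (log axis, a value of 0 drawn at 0.02). Circles are HM and crosses LM libraries, dark for control and red for DFX, and Stmn4 and Atp13a4 are the rises whose LM_DFX value stayed near or below an FPKM of 1.

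Iron handling at the messenger level moved little apart from a few genes. Tfrc (chr16:32608920-32632794), the transferrin receptor through which most cells take up iron, was at 102 in HM_Ctrl and 175 in HM_DFX, 1.72-fold (1.67 to 1.76) higher and under the 2-fold limit. The uptake list held 8 measured genes of 13, with a median of −0.52. None of the 8 rose and 2 fell (25%), beside 7.22% and 12.9% of all genes. The falls were Steap2, a metalloreductase of endosomes, from 17.1 to 2.32, and Hfe, which binds the transferrin receptor, from 1.67 to 0.331. With median–ratio scaling 1 of the 8 fell, and Hfe did not. Slc11a2, the transporter that carries ferrous iron across the membrane, stood at 6.22 in HM_Ctrl and 9.98 in HM_DFX. The ferritin subunits Fth1 and Ftl1, which store iron, were at 2551 in HM_Ctrl and 1587 in HM_DFX and at 1254 in HM_Ctrl and 1803 in HM_DFX, and 57.7% of Ftl1 sequence is shared with other genes and 26.5% of its exons lie over a gene on the opposite strand. The sole iron exporter Slc40a1 was at 0.0664 in HM_Ctrl and 0.0696 in HM_DFX, under an FPKM of 1, and the ferroxidase Cp went from 29.4 to 7.26, 4.04-fold (3.78 to 4.33) lower. The iron regulatory proteins Aco1 and Ireb2 were at 22.3 in HM_Ctrl and 16.8 in HM_DFX and at 11.3 in HM_Ctrl and 12.5 in HM_DFX.

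The IREs are printed because they are the sequences on which iron regulation of these messages rests. The annotated untranslated regions of 10380 measured genes were searched for a C, any 5 bases, the loop CAGTGN or CAGCGN with no G at its end, and 5 bases that pair with the first 5, with G–T pairs allowed. At least 3 matches in the 3′ untranslated region were found in 1 measured gene, Tfrc. The windows below are read from GENCODE M21 transcripts on build mm10, in the sense of the message with T for U, and the capitals mark the loop.
Tfrc 3′ untranslated region, chr16:32631219-32631247, plus strand: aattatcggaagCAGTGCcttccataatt
Tfrc, chr16:32631598-32631626: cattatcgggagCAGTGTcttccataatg
Tfrc, chr16:32631663-32631691: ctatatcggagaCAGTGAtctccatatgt
Tfrc, chr16:32631710-32631738: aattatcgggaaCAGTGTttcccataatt
Fth1 5′ untranslated region, chr19:9982732-9982760, plus strand: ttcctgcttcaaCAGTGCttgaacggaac
Ftl1 5′ untranslated region, chr7:45459779-45459807, minus strand: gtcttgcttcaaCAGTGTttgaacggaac
Of the 18 measured genes with a match in the 5′ untranslated region, 1 rose and 3 fell, with a median of 0.23, and of 70 with a match in the 3′ untranslated region 1 rose and 10 fell, with a median of −0.22. These medians stand beside −0.11 for all genes.

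Several heme enzymes were lower and the heme–degrading enzyme was higher. Hmox1 (chr8:75093621-75100589), heme oxygenase 1, which breaks heme down and frees its iron, had 34.2 in HM_Ctrl and 169 in HM_DFX, a rise of 4.95-fold (4.62 to 5.31). Of the 15 measured heme genes it was the only one to rise (6.67%, beside 7.22% of all genes), and 6 fell (40%, beside 12.9%). Among these were Alad, the second enzyme of heme synthesis, from 32.3 to 13.4, Ppox, the enzyme before the last step, from 6.48 to 2.13, and Fech, ferrochelatase, which inserts the iron, from 14.3 to 6.504. Blvra, which reduces the biliverdin left by heme oxygenase, fell from 7.98 to 3.02. The median of the list was −0.48, and with median–ratio scaling 3 in place of 6 genes fell. Of 27 genes of mitochondrial iron import and iron–sulfur assembly, Hspa9, the chaperone that hands over new clusters, rose from 214 to 569, Ciapin1, a cytosolic assembly factor, from 8.28 to 18.9, and Iba57 from 1.42 to 5.06, while Fdxr, the reductase that feeds electrons to cluster assembly, fell from 6.28 to 2.03. Of these 27, 3 rose (11.1%) and 1 fell (3.70%), beside 7.22% and 12.9% of all genes. The median of the 27 was −0.07, and above 0, at 0.04, with median–ratio scaling.

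Respiratory chain messages stayed within 2-fold for all 59 measured nuclear subunits, with a median of −0.37. Of the 13 protein genes of the mitochondrial genome 3 fell and none rose, with a median of −0.71. mt-Nd5, a subunit of complex I, went from 921 to 442, and mt-Nd6, the complex I subunit on the other strand of the mitochondrial genome, from 135 to 44.4. mt-Atp8, which shares 21.1% of its exon with mt-Atp6, went from 7.61 to 1.71. The protein genes of this genome took 1.84% of all fragments in HM_Ctrl and 1.25% in HM_DFX, opposite to the mitochondrial ribosomal RNAs above. The leucine transfer RNA mt-Tl1 went from 45.4 to 2.78.

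Targets of HIF other than glycolytic enzymes held 26 measured genes of 30, of which 6 rose and 2 fell, with a median of 0.50. Kdm3a, a histone H3 lysine 9 demethylase that is itself an iron enzyme, rose from 15.1 to 52.0, 3.44-fold (3.27 to 3.62) higher. Ndrg1 (chr15:66929321-66969640), a stress–induced gene whose product restrains the spread of several carcinomas, had 177 in HM_Ctrl and 577 in HM_DFX, 3.26-fold (3.21 to 3.32) higher. Higd1a, a small protein of the respiratory chain, rose from 25.3 to 67.1, Ero1l, the oxidase that forms disulfide bonds in the endoplasmic reticulum, from 87.7 to 201, and Ak4, a mitochondrial adenylate kinase, from 13.5 to 32.4. Egln3, a prolyl hydroxylase and a HIF target, went the other way, from 85.9 to 32.8, 2.62-fold (2.45 to 2.79) lower. With median–ratio scaling 9 of the 26 rose and 1 fell. The share of Higd1a exons that overlap a gene on the opposite strand was 22.5%. The core of the hypoxia element, ACGTG on either strand, stood in 57.9% of the promoters of these targets, in 44.4% of those of the glycolytic targets and in 19.6% of all.

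Of the HIF pathway itself, Hif1a, the regulated subunit, had 69.1 in HM_Ctrl and 30.6 in HM_DFX, 2.26-fold (2.16 to 2.37) lower. Egln1, the main prolyl hydroxylase, stood at 54.2 in HM_Ctrl and 53.9 in HM_DFX. Among 18 glycolytic targets, Pfkfb3, which makes the activator of phosphofructokinase, rose from 2.49 to 10.1 and Eno2, the neuronal enolase, from 10.2 to 26.1. Slc2a1, the glucose transporter GLUT1, was at 107 in HM_Ctrl and 207 in HM_DFX and Vegfa, the angiogenic growth factor, at 31.9 in HM_Ctrl and 63.5 in HM_DFX, both within 2-fold. Gapdh was lower, from 22.9 to 10.7, and 27.2% of its sequence is shared with other genes. In 4T1–LM the same 26 other targets had a median of 1.88 and 21 rose past 2-fold in LM_DFX, against 6 of 26 in 4T1–HM, and the 18 glycolytic targets had medians of 0.35 in HM and 1.06 in LM. The control levels of several differed between the clones, Egln3 standing at 85.9 in HM_Ctrl and 29.8 in LM_Ctrl and Eno2 at 10.2 and 1.26. The difference between the clones was not tested.

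The HIF hydroxylases belong to the dioxygenases that use iron and 2–oxoglutarate. Of 43 measured members of this family 5 rose (11.6%) and 3 fell (6.98%), beside 7.22% and 12.9% of all genes. The median was 0.14. The rises were Kdm6b, which removes the repressive mark of histone H3 lysine 27, from 12.5 to 55.1, Kdm7a from 2.83 to 10.8, Kdm3a as above, Jmjd6 from 21.8 to 51.7, and Tet3, which oxidises methylated cytosine, from 2.98 to 7.68. Kdm6b was 4.39-fold (4.14 to 4.66) higher. With median–ratio scaling 8 rose and 2 fell. The falls were Egln3, Phyh, which takes part in breakdown of phytanic acid, from 11.7 to 4.74, and Alkbh7, a mitochondrial member, from 9.98 to 4.33.

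Genes of mitosis were lower, and few genes of the replication fork fell. All 50 measured mitotic genes were below 0, 27 of them past 2-fold and none above, with a median of −1.07, where 12.9% of all genes fell. Under median–ratio scaling 48 were below 0 and 22 fell. Plk1 (chr7:122159439-122169873), the polo–like kinase that drives entry into and passage through mitosis, had 56.0 in HM_Ctrl and 6.40 in HM_DFX, 8.76-fold (7.57 to 10.2) lower. Ccnb2, a B–type cyclin, fell from 72.3 to 8.96, 8.07-fold (6.96 to 9.39) lower, Cdc25b, the phosphatase that activates Cdk1, from 31.5 to 5.10, and Ube2c, the ubiquitin–conjugating enzyme of the anaphase–promoting complex, from 56.6 to 9.96. Ccnb1 fell from 33.7 to 9.03, with 27.7% of its sequence shared, and Foxm1, a transcription factor of the mitotic program, from 33.6 to 11.9. Cdk1, the kinase that they switch on, was at 39.3 in HM_Ctrl and 20.01 in HM_DFX and the proliferation marker Mki67 at 43.6 in HM_Ctrl and 36.4 in HM_DFX, both within 2-fold. Ube2c exons overlap a gene on the opposite strand by 22.8%.

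Of 44 measured replication genes none rose and 2 fell, with a median of −0.01, or 0.11 with median–ratio scaling. These were Dna2, an iron–sulfur helicase and nuclease of Okazaki fragments, from 2.19 to 0.332 with 216 and 28 fragments, and Gins2, a subunit of the replicative helicase, from 6.79 to 2.33, 67.3% of whose exons overlap a gene on the opposite strand. Pole2, a subunit of DNA polymerase epsilon, was at 17.6 in HM_Ctrl and 8.46 in HM_DFX, and Lig1, the ligase that joins Okazaki fragments, at 29.7 in HM_Ctrl and 16.3 in HM_DFX. In the supply of nucleotides, Rrm2, the iron–carrying subunit of ribonucleotide reductase, fell from 88.4 to 30.3, 2.92-fold (2.74 to 3.11) lower. Its partner Rrm1 was at 24.9 in HM_Ctrl and 16.4 in HM_DFX and the p53–inducible subunit Rrm2b at 8.15 in HM_Ctrl and 3.93 in HM_DFX. Tk1, thymidine kinase, fell from 28.9 to 3.71, 7.78-fold (6.87 to 8.84) lower, and Cad, the enzyme that starts pyrimidine synthesis, from 32.3 to 14.2. The 24 genes of this list had a median of −0.40, with none higher and 4 lower (16.7%, beside 12.9% of all genes).

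**Figure D3:**
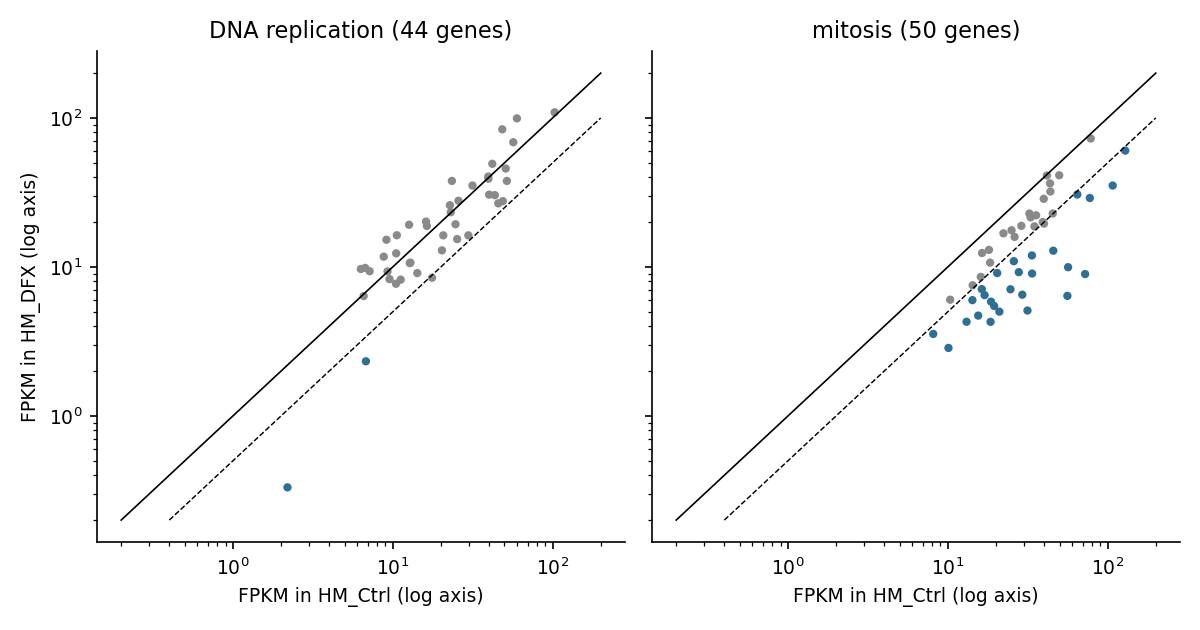
FPKM of each measured gene of DNA replication and of mitosis in HM_Ctrl (horizontal) and HM_DFX (vertical), both on log axes. The solid line marks equal values and the dashed line 2-fold lower, and blue points, 27 of 50 mitotic genes and 2 of 44 replication genes, fell past 2-fold.

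Promoters of the mitotic genes are shown for the short element of the cell cycle, the CHR (TTTGAA or TTCGAA), searched on both strands. In the RefSeq promoter table of build GRCm38.p6, which runs from 250 bases before to 50 after the start of a gene, 32 of 40 mitotic genes with a promoter (80.0%) held it, 7 of 36 replication genes (19.4%), and 19.2% of all 32851 promoters. CCAAT stood in 77.5% of the mitotic promoters and in 37.4% of all. An E2F motif (TTTCGCGC or TTTGGCGC) was found in 9 of 36 replication promoters, 5.00% of the mitotic ones and 0.813% of all. A match is a description of the letters, not a site. Capitals below mark CHR and CCAAT matches on either strand.
Ccnb2, chr9:70421505-70421804, minus strand: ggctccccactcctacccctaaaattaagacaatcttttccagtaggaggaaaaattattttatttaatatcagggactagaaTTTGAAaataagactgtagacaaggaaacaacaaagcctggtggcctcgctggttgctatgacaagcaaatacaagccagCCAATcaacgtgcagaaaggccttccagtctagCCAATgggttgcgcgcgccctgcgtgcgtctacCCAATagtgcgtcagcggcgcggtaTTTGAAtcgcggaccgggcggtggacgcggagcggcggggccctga
Plk1, chr7:122159185-122159484, plus strand: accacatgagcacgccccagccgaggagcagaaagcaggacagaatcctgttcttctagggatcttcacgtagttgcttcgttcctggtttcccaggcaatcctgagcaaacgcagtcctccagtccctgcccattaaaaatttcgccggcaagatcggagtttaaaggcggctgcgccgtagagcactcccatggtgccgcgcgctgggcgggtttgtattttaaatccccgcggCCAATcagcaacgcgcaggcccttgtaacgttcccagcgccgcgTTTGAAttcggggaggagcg

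Inhibitors of the cyclin–dependent kinases moved in both directions. Cdkn1a (chr17:29090979-29100722), p21, the inhibitor induced by p53 among others, rose from 14.1 to 84.5, 5.99-fold (5.46 to 6.59) higher. Cdkn2c, p18, which binds Cdk4 and Cdk6, fell from 93.6 to 7.08, 13.2-fold (11.7 to 15.005) lower, and Cdkn3 fell from 20.4 to 4.41. Cdkn1b, p27, was at 35.1 in HM_Ctrl and 24.0 in HM_DFX. Ccnd1, cyclin D1, the partner of Cdk4, had 293 in HM_Ctrl and 45.5 in HM_DFX, 6.45-fold (6.21 to 6.70) lower, with 23.4% of its exons over a gene on the opposite strand. E2f8, a repressor among the E2F factors, fell from 28.8 to 10.5. Rbl2, the Rb relative p130, fell from 6.52 to 2.00, with 20.97% of its exons over a gene on the opposite strand. These were the 3 falls among 23 genes of this step (13.04%, beside 12.9% of all genes), of which none rose.

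Targets of p53 held 25 measured genes with a median of −0.16, below 0. Of these 5 rose (20%) and 2 fell (8%), beside 7.22% and 12.9% of all genes. Besides Cdkn1a, Plk2, a polo–like kinase of the stress response, rose from 26.2 to 139.6, 5.33-fold (5.01 to 5.67) higher, and Mdm2, the ubiquitin ligase that restrains p53, from 19.1 to 61.9, 3.24-fold (3.06 to 3.43) higher. Trp53inp1 rose from 4.27 to 11.3 and the death receptor Fas from 1.92 to 4.99. Psrc1, a spindle protein that the list holds as a p53 target, fell from 1.99 to 0.0207, and Ckap2, another spindle protein, from 26.5 to 9.87. Trp53 itself rose, at 17.5 in HM_Ctrl and 38.1 in HM_DFX, against 14.7 in LM_Ctrl and 30.9 in LM_DFX. Of 34 damage–response genes none rose and 5 fell, 14.7% beside 12.9% of all genes: H2afx, the histone that is marked at double–strand breaks, from 101 to 10.4, 9.75-fold (8.45 to 11.3) lower, the checkpoint kinase Chek2 from 7.502 to 1.95, Fanca from 6.87 to 1.89, Xrcc3 from 4.41 to 1.06 and Rad54l from 5.09 to 1.46. The last 4 act in checkpoint signaling or in repair of DNA breaks and crosslinks.

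Among 21 measured genes of the Bcl2 family and caspases 1 rose (4.76%) and 6 fell (28.6%), beside 7.22% and 12.9% of all genes. The median was −0.49, and with median–ratio scaling 4 fell. Bcl2l1, Bcl–xL, which protects mitochondria from permeabilisation, had 23.8 in HM_Ctrl and 4.83 in HM_DFX, 4.92-fold (4.36 to 5.56) lower. Its relative Bcl2 fell from 4.06 to 0.844 and Bok, which promotes death, from 26.4 to 6.70. The initiator caspase Casp9 fell from 5.12 to 1.96. Birc3, an inhibitor of apoptosis and a target of NF-κB, was the rise, from 2.46 to 6.78.

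Most interferon–stimulated genes rose. Of 40 measured genes 32 rose and none fell, with a median of 1.90, where 7.22% of all genes rose. Cxcl10 (chr5:92346638-92348889), a chemokine that draws T cells, had 3.39 in HM_Ctrl and 77.6 in HM_DFX, 22.9-fold (19.1 to 27.5) higher, and 1.13 and 95.3 in LM_Ctrl and LM_DFX. Rsad2, viperin, an antiviral iron–sulfur enzyme, rose from 0.993 to 18.5, 18.6-fold (14.6 to 23.9) higher. Oasl1, which binds double–stranded RNA, rose from 7.81 to 84.6, Gbp3, a guanylate–binding protein, from 2.14 to 28.5, Usp18, the protease that removes Isg15 from proteins, from 0.535 to 12.9, and Isg15 itself from 24.6 to 217. Genes in this list named beyond the 4 with the largest changes, here and in the lists below and above, were chosen after their values were seen. Fragment numbers behind the low control values were 72 for Rsad2, 25 for Usp18 and 117 for Gbp3.

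The sensors and factors of the pathway rose with its effectors. Ddx58 and Ifih1, the sensors RIG–I and MDA5 of viral RNA, went from 7.41 to 40.2 and from 3.01 to 10.0. Of the transcription factors, Irf7 went from 1.82 to 14.8, Irf9 from 4.31 to 16.5 and Stat2 from 7.67 to 33.4. Mx2, a dynamin–like antiviral protein, rose from 0.364 to 10.9. Of 13 genes of MHC class I presentation only Tap1, which pumps peptides to the class I molecule, rose, from 1.13 to 4.63, and the median was 0.30. B2m, the light chain, was at 372 in HM_Ctrl and 565 in HM_DFX. The interferon list had a median of 3.14 in 4T1–LM, where 39 of the 40 were at least 2-fold higher.

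The interferon element ISRE (GAAANNGAAA, either strand) is shown in the promoters of the leading genes. It stood in 18 of 30 promoters of the list (60.0%) and in 3.44% of all promoters. Capitals mark the match, between bases −213 and −204 of Cxcl10 and bases −120 and −111 of Rsad2, counted from the start of the gene with no base 0.
Cxcl10, chr5:92348840-92349139, minus strand: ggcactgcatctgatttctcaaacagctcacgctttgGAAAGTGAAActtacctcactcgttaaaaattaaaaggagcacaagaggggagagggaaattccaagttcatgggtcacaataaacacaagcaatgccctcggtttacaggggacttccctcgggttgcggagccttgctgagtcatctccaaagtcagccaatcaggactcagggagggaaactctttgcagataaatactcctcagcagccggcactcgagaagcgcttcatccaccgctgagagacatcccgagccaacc
Rsad2, chr12:26456403-26456702, minus strand: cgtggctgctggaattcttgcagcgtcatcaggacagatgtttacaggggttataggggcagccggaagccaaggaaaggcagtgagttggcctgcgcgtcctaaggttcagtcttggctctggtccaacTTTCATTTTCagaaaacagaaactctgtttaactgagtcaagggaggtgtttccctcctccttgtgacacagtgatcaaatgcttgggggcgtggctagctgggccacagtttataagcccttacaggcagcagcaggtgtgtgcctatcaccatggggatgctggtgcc

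Chemokines outside this list gave some of the largest changes. Ccl5, which draws T cells and monocytes, had 10.7 in HM_Ctrl and 278 in HM_DFX, and Ccl4 0.724 and 66.6. Cxcl1, which draws neutrophils, rose from 8.15 to 41.7, 5.12-fold (4.47 to 5.89) higher. Cx3cl1, fractalkine, fell from 11.96 to 3.61 and Cxcl5, another neutrophil chemokine, from 17.1 to 7.77. Of 37 chemokine genes 11 were measured, 5 of which rose and 2 fell. Of 15 measured cytokines, Il11, a cytokine of the interleukin 6 family, rose from 1.96 to 11.9, and Csf2, GM–CSF, from 4.78 to 11.9. Tslp, an epithelial cytokine that acts on dendritic cells, fell from 165 to 30.4, 5.44-fold (4.94 to 5.99) lower, Il34, a ligand of the macrophage receptor Csf1r, from 16.5 to 5.30, and Csf3, G–CSF, from 60.7 to 23.4.

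NF-κB genes that rose included inhibitors that the factor induces against itself. Of 18 measured subunits and feedback genes 9 rose and 2 fell, with a median of 0.92 in HM and 0.18 in LM. Nfkbia, the inhibitor IκBα, had 24.3 in HM_Ctrl and 163 in HM_DFX, 6.72-fold (6.18 to 7.32) higher, and 30.4 and 82.1 in the LM libraries. Nfkbib, IκBβ, rose from 10.4 to 49.6. The subunits Rela and Relb rose from 44.0 to 136 and from 5.46 to 23.9, and Tnfaip3, the feedback enzyme A20, from 9.84 to 20.96. The falls were Tnfaip2, from 141 to 53.3, and the adhesion molecule Vcam1, from 5.47 to 2.01. An NF-κB motif (GGGANTTTCC or GGGGNTTTCC) stood in 4 of 14 promoters of the list (28.6%) and in 0.807% of all, and in Nfkbia between bases −29 and −20, in capitals.
Nfkbia, chr12:55492598-55492897, minus strand: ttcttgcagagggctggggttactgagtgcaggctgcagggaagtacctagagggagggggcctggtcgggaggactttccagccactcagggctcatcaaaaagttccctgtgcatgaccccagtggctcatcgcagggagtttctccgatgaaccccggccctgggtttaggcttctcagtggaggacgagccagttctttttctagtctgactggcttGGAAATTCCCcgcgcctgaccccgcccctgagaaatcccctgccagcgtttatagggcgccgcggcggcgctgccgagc

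Genes of the endoplasmic reticulum stress response were mostly higher. All 22 measured genes of the unfolded protein response list were above 0, of which 10 rose and none fell, with a median of 0.88 in HM and 0.25 in LM. Of 41 genes with the annotation term endoplasmic reticulum unfolded protein response, 12 rose (29.3%) and 3 fell (7.32%). Their median was 0.36 in HM and 0.47 in LM, so the higher median of HM in the list was not seen over the term. Hspa5 (chr2:34771970-34777547), BiP, the main chaperone of this compartment, had 472 in HM_Ctrl and 2053 in HM_DFX, 4.34-fold (4.29 to 4.40) higher, against 469.8 and 1051 in LM_Ctrl and LM_DFX. Dnajb9, its J–protein partner, rose from 20.1 to 163, 8.13-fold (7.47 to 8.85) higher. Sdf2l1 rose from 16.6 to 56.9, and the secreted proteins Manf and Creld2 from 45.7 to 129 and from 26.9 to 76.6. Of the sensors and factors, Atf6 rose from 13.5 to 33.9 and Xbp1 from 37.5 to 81.2.

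The element ERSE (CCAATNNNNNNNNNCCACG, which contains CCAAT) is printed in Hspa5, where it lies between bases −65 and −47 and is in capitals. It stood in 8 of 19 promoters of this list (42.1%) and in 0.119% of all promoters.
Hspa5, chr2:34771840-34772139, plus strand: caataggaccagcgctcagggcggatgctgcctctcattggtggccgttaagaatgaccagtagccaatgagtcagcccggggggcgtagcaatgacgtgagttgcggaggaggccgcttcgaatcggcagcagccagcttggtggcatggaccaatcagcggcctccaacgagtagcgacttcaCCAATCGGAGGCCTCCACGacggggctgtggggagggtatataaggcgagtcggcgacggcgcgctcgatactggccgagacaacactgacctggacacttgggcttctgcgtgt

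Targets of ATF4, the factor of the integrated stress response, held 34 measured genes, of which 14 rose and 1 fell, with a median of 0.79. Atf3, a stress–induced repressor, had 45.0 in HM_Ctrl and 385 in HM_DFX, 8.56-fold (8.13 to 9.03) higher. Ppp1r15a, GADD34, which restores translation by dephosphorylating eIF2α, rose from 20.9 to 169.9, 8.11-fold (7.60 to 8.67) higher. Slc7a11, the cystine importer, rose from 2.57 to 13.2, and Aars, the synthetase that loads alanine onto its transfer RNA, from 59.8 to 187. The asparagine synthetase Asns rose from 57.8 to 165 and the tryptophan synthetase of transfer RNA Wars from 43.3 to 115. Chac1, which degrades glutathione, was the fall, from 154 to 55.8, and Atf4 itself was at 359.97 in HM_Ctrl and 521 in HM_DFX. The motif TGATGNAA stood in 34.6% of the promoters of the list and in 3.97% of all.

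Cytosolic chaperones moved less. Of 16 measured heat shock genes 2 rose, Hspb8, a small heat shock protein, from 41.6 to 135, and Hspa1b, an inducible Hsp70, from 18.2 to 51.2, with 68.0% of its sequence shared with its near–identical copy and other genes. Bag3, the partner of Hspb8, was at 22.03 in HM_Ctrl and 38.1 in HM_DFX. Among 28 targets of NRF2 and genes of ferroptosis defence 4 rose (14.3%) and 5 fell (17.9%), or 3 with median–ratio scaling. The shares over all genes were 7.22% and 12.9%. Sqstm1, p62, an autophagy receptor, rose from 428 to 1376, 3.22-fold (3.17 to 3.27) higher, and Srxn1, sulfiredoxin, from 14.0 to 32.1. Mgst1, a microsomal glutathione transferase, fell from 10.00 to 2.91, and Acsl4, which makes the polyunsaturated phospholipids that ferroptosis oxidises, from 88.8 to 32.8. Of 31 listed autophagy genes 5 rose (16.1%) and none fell, Atg14 from 7.53 to 23.8 and the receptor Nbr1 from 28.9 to 75.6 among them. Gabarapl1, an ATG8 protein, rose from 19.2 to 50.3, with 28.3% of its exons over a gene on the opposite strand. Of 147 genes with the annotation term autophagy 14 rose (9.52%) and 8 fell (5.44%), with a median of 0.10. The 48 lysosomal genes had a median of −0.22 in HM and 0.56 in LM, with Cd68 higher, from 12.9 to 37.4, and Gusb lower, from 24.1 to 7.61.

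Lipid synthesis was lower, first of all the sterol pathway. All 23 measured genes of cholesterol synthesis and its control were below 0, also under median–ratio scaling, and 17 fell, with a median of −1.56 in HM and −1.07 in LM. Hmgcs1, the synthase of an early step of the pathway, fell from 105 to 23.7. Mvk, mevalonate kinase, fell from 16.6 to 3.10 and Idi1, which isomerises isopentenyl pyrophosphate, from 33.9 to 4.57, 7.41-fold (6.46 to 8.53) lower. Stard4, a carrier of sterols, fell from 21.6 to 3.85. Acat2, the thiolase that starts the pathway, was among the 15 largest falls, from 62.5 to 7.12, with 43.7% of its sequence shared.

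Of 13 measured genes of fatty acid synthesis 9 fell and none rose, with a median of −1.41. Fasn, fatty acid synthase, fell from 124 to 30.7, 4.04-fold (3.92 to 4.17) lower, and Elovl6, which lengthens palmitate, from 31.7 to 3.31, 9.56-fold (8.51 to 10.8) lower. Acaca, the carboxylase before Fasn, was among the falls. Scd2, a desaturase with iron in its active site, had 518 in HM_Ctrl and 166 in HM_DFX. A sterol element (CACCCCAC, CACCGCAC or CACCTCAC, either strand) stood in 2 of 16 cholesterol promoters (12.5%), in 31.6% of those of the unfolded protein response and in 4.86% of all, whereas CCAAT stood in 15 of the 16 (93.8%) and in 37.4% of all. Hmgcs1 holds both, in capitals (CCAAT reads ATTGG on the other strand), with the sterol element between bases −136 and −129, and Idi1 holds CCAAT and no match to the sterol element.
Hmgcs1, chr13:119690101-119690400, plus strand: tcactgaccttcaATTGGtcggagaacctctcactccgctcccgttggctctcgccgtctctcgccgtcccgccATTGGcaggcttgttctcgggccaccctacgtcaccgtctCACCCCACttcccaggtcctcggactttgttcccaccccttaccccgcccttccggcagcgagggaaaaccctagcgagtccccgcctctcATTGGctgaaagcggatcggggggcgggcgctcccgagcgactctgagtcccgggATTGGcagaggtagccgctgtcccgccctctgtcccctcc
Idi1, chr13:8885356-8885655, plus strand: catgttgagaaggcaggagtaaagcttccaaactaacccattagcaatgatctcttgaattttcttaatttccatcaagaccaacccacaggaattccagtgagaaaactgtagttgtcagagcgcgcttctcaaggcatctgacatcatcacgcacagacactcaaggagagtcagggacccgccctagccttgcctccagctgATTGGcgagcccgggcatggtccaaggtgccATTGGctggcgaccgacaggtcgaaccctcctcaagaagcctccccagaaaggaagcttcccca

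**Figure D4:**
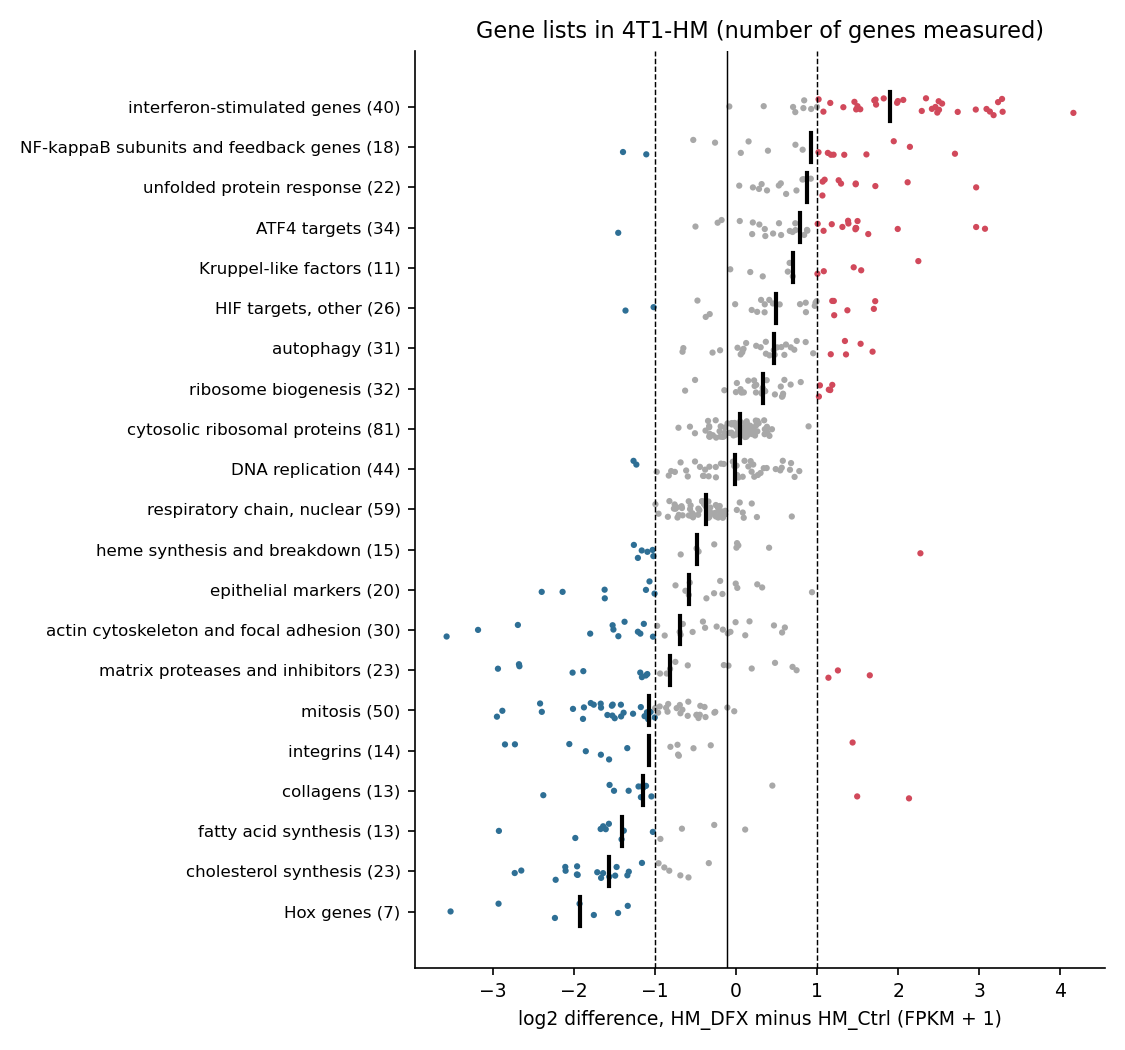
Log2 difference of HM_DFX from HM_Ctrl for every measured gene of 21 lists, 1 point a gene, with the median of each list as a black bar, a solid line at the median of all genes and dashed lines at 2-fold. Red points rose and blue points fell; interferon–stimulated genes and the unfolded protein response lie to the higher side, and cholesterol synthesis, mitosis and Hox genes to the lower.

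Matrix, adhesion and cytoskeleton were mostly lower. Of 13 measured collagens of 44, 10 fell and 2 rose, with a median of −1.14 in HM and −0.40 in LM. Col4a1, a chain of basement membrane collagen, had 118 in HM_Ctrl and 39.4 in HM_DFX, 2.99-fold (2.89 to 3.10) lower, and Col8a1, a short–chain collagen, fell from 61.8 to 11.1. The rises were low in level, Col11a2 from 0.201 to 4.27 and Col20a1 from 0.0855 to 2.06. Of 14 integrins 7 fell and 1 rose. Itga3, the α3 chain of a laminin receptor, fell from 414 to 56.7, 7.30-fold (7.08 to 7.53) lower, and Itgb4, the β4 chain of hemidesmosomes, from 33.7 to 8.61, while Itga5, the fibronectin receptor chain, rose from 18.3 to 51.3. The leukocyte chain Itgb2 fell from 8.47 to 0.433 and Itgb3 from 4.52 to 0.330.

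Matrix proteases and their inhibitors fell in 9 and rose in 3 of 23 measured genes of 53. Mmp3, stromelysin 1, had 100.3 in HM_Ctrl and 12.3 in HM_DFX, 8.18-fold (7.29 to 9.21) lower. Mmp14, the membrane–bound protease that activates gelatinase A, fell from 63.1 to 9.04, 6.98-fold (6.39 to 7.64) lower, and Plau, urokinase, from 70.5 to 10.3, 6.88-fold (6.15 to 7.72) lower. Timp2, an inhibitor of these proteases, fell as well, from 282 to 75.8. The rises were Plat, the tissue plasminogen activator, from 3.06 to 7.95, and from near 0 Serpinb2 from 0.0508 to 1.51 and Mmp12 from 0.00825 to 2.16.

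Of 30 genes of actin and focal adhesions 12 fell and none rose, with a median of −0.69. Actb fell from 1080.5 to 310.3 and Cnn2, a calponin, from 59.8 to 8.43, and Actb shares 23.5% of its sequence with other genes. The caveolins Cav1 and Cav2 fell from 13.8 to 4.43 and from 19.1 to 6.74. Among 20 epithelial markers 7 fell and none rose: Krt7 went from 177 to 32.9, Krt8 from 593 to 134 and Krt18 from 773 to 251, keratins of simple epithelium, Spint1, an inhibitor of epithelial proteases, from 29.1 to 8.81, the tight junction protein Cldn3 from 107 to 48.9, Cdh1, E–cadherin, from 92.5 to 43.7, and Epcam from 28.2 to 13.5. With median–ratio scaling 4 of the 20 fell and 1 rose. For Krt8, 32.3% of the sequence is shared with other genes. Of 7 measured mesenchymal markers 2 fell and none rose, Sparc from 49.8 to 12.8 and S100a4 from 17.997 to 4.89, and Vim, vimentin, was at 937 in HM_Ctrl and 482 in HM_DFX. S100a4 shares 49.2% of its sequence with other genes and 51.7% of its exons with a gene on the same strand.

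Measured Hox genes of the A cluster, which set position along the body axis in the embryo, all fell. Of 39 Hox genes 7 were measured, all in this cluster, and 26 were at 0 in all 4 libraries. Hoxa5, the highest, had 49.5 in HM_Ctrl and 3.41 in HM_DFX, and Hoxa6 18.1 and 1.51. Hoxa2 fell from 6.09 to 0.510 and Hoxa10 from 6.04 to 0.852. The median FPKM of the 7 was 6.09 in HM_Ctrl and 0.852 in HM_DFX. Members under an FPKM of 1 in HM_DFX, such as Hoxa2 and Hoxa10, entered only through HM_Ctrl and so could not rise. The median difference of the 7 was −1.93 in HM and −1.69 in LM. Of 34 measured semaphorins, ephrins, netrins and receptors, cues for growing axons and vessels, 11 fell and 2 rose, with the receptor Epha1 from 10.5 to 0.443 and the ligands Sema3f from 15.4 to 2.17 and Sema7a from 14.9 to 2.15 among the falls.

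The core of PI3K, AKT and mTOR moved about as often as all genes, of which 7.22% rose and 12.9% fell. Of 41 measured genes 2 rose (4.88%) and 6 fell (14.6%), with a median of −0.02, or 0.09 with 4 higher and 4 lower under median–ratio scaling. Akt1, the central kinase, fell from 123 to 44.0, 2.78-fold (2.66 to 2.91) lower, and Deptor, an inhibitor of mTOR, from 11.6 to 3.02. Foxo3, a transcription factor that AKT holds out of the nucleus, rose from 8.03 to 29.8, 3.71-fold (3.46 to 3.99) higher. Mtor was at 8.62 in HM_Ctrl and 8.47 in HM_DFX, within 2-fold. Among receptors, Erbb2 fell from 12.5 to 3.80 and Axl, a kinase linked to invasion, from 242 to 61.8, 3.92-fold (3.79 to 4.05) lower, and Fgfr2 from 9.91 to 1.87. Of the ligands, Tgfa fell from 12.4 to 3.98, and Nrg1, neuregulin 1, rose from 3.85 to 12.2 and Kitl, stem cell factor, from 10.00 to 26.4. Esr1 and Pgr, the hormone receptors that TNBC lacks, did not reach an FPKM of 1.

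Feedback genes of the MAP kinases moved in both directions. Dusp1 and Dusp8, phosphatases of the stress kinases JNK and p38, rose from 7.20 to 52.0, 7.22-fold (6.42 to 8.15) higher, and from 9.06 to 62.7, and Dusp10 and Dusp16, of the same kind, from 23.7 to 51.6 and from 9.13 to 28.8. Dusp6, which acts on ERK, fell from 46.6 to 8.52, 5.47-fold (4.88 to 6.15) lower, and Spry1, an inhibitor upstream of ERK, from 19.7 to 3.11, with 24.4% of its exons over a gene on the opposite strand, while its relative Spry2 rose from 33.3 to 73.3. In all 5 of 16 rose (31.25%) and 2 fell (12.5%), beside 7.22% and 12.9% of all genes, so the falls were about as frequent as over all genes. Of 18 measured AP-1 and immediate early genes 6 rose (33.3%) and 2 fell (11.1%), beside the same shares of all genes. Jun rose from 70.2 to 225, Fos from 0.939 to 5.59 and the small Maf factor Mafk from 10.5 to 49.1, and Egr3, an ERK–induced factor, fell from 3.63 to 0.393. The median of this list was 0.55 in HM and 0.09 in LM.

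Krüppel–like factors rose in 5 of 11 measured genes and fell in none. Klf11 rose from 4.10 to 23.2, 5.67-fold (4.99 to 6.45) higher, Klf4 from 20.6 to 62.1, Klf10 from 17.8 to 50.6, Klf6 from 75.01 to 160.05 and Klf5 from 67.0 to 135. Myc was at 119 in HM_Ctrl and 231 in HM_DFX, within 2-fold, and of its antagonists Mxd1 rose from 2.11 to 5.62 and Mxd3 fell from 6.86 to 1.71. The inhibitors of differentiation Id1 and Id3, targets of BMP signaling, fell from 17.2 to 3.18 and from 21.3 to 4.74, and the ligands Tgfb1 and Tgfb3 from 14.5 to 4.75 and from 19.7 to 4.46, while Inhba, activin, rose from 12.3 to 36.9. Ctnnb1, β–catenin, of cell junctions and Wnt signaling, had 251 in HM_Ctrl and 70.2 in HM_DFX, 3.58-fold (3.47 to 3.69) lower. Nrarp and Hes1, targets of Notch, fell from 12.8 to 0.701 and from 16.8 to 4.48.

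Of 81 measured cytosolic ribosomal protein genes 0 rose or fell, or 1 rose with median–ratio scaling, with a median of 0.05, and 53 of these share over 20% of their sequence with other genes, mostly copies. Of 32 genes of ribosome biogenesis 5 rose and none fell, with a median of 0.34 in HM and −0.21 in LM, among them Nop58, of the particle that methylates ribosomal RNA, from 24.2 to 56.4, and Gnl3, nucleostemin, from 77.5 to 175. Most of the most abundant messages of HM_Ctrl stayed within 2-fold, including Eef1a1, the translation factor that brings transfer RNA, 3332 in HM_Ctrl and 2676 in HM_DFX, and mt-Co1, 5098 in HM_Ctrl and 4248 in HM_DFX, which share 49.8% and 63.9% of their sequence with other genes. The exceptions were Lgals1, galectin 1, from 4726 to 1832, 2.58-fold (2.54 to 2.62) lower, and Ctsl, the lysosomal protease cathepsin L, from 1397 to 528, 2.64-fold (2.60 to 2.69) lower, with 26.8% of its exons over a gene on the opposite strand.

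Protein–coding genes made up 10502 of the 12161, and 671 of them rose and 1310 fell. Of 132 measured miRNA genes 34 rose (25.8%) and 52 fell (39.4%), beside 7.22% and 12.9% of all genes. Their median length was 83 bases, so few fragments stand behind most of these values. Of 112 snoRNA genes 21 rose (18.8%) and 23 fell (20.5%), and of 167 lincRNA genes 21 (12.6%) and 37 (22.2%). Mir31 fell from 105 to 3.94, and all of its sequence (100%) lies within another annotated exon on the same strand, so the RNAs cannot be told apart. Rn7sk, the RNA that holds back the elongation factor P–TEFb, went from 3.61 to 73.8, with 72.8% of its sequence in other genes. Such short RNAs are poorly captured by poly(A)–selected libraries. Neat1, the scaffold RNA of paraspeckles, fell from 29.8 to 4.48, and Malat1, its neighbour on the chromosome, was at 41.5 and 33.5; both were chosen after their values were seen. Gm11517 went from 0.154 to 10.1 and Gm28119 from 24.4 to 0.701, the second with 21.1% of its sequence shared. Gm22935 had 9.76 in HM_Ctrl, from 17 fragments, and 0 in HM_DFX.

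The changed genes were also compared by sequence, as a description. Among protein–coding genes, those that fell had a median GC content of 53.2% over their exons, against 50.0% in those that rose and 49.8% in the rest. Their median exon length was 3763.5 bases, against 4310 and 4647. The AU–rich element TATTTAT, a mark of unstable messages, was found in the 3′ untranslated region of 36.3% of the genes that rose, 26.1% of those that fell and 31.4% of the rest.

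The response of 4T1–LM was measured in the other 2 libraries, which share no library with the HM response. Of 11455 genes that reached an FPKM of 1 in either LM library as well as in either HM library, 846 (7.39%) rose and 984 (8.59%) fell in LM, and 743 rose and 1465 fell in HM. Both clones shared 438 rises, 59.0% of those in HM and 51.8% of those in LM, and 674 falls, 46.0% and 68.5%. In opposite directions moved 7 genes that rose in HM and fell in LM, and 14 that fell in HM and rose in LM, and most of these were small RNAs or other genes at 0 in at least 1 library of each clone. Genes that rose in HM had a median of 1.32 there and 1.17 in LM, and genes that fell had −1.34 and −0.95. These genes were chosen by the 2-fold limit in HM, so their HM medians lie past it by that choice. The gap to the LM medians can therefore not be read as a difference between the clones.

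The protein–coding genes with the widest gap between the clones, by the log2 difference in HM minus that in LM, included genes of stress and of signaling. Nptx1, a secreted pentraxin of synapses, fell in HM from 53.1 to 5.94, 8.94-fold (8.11 to 9.87) lower, and was at 18.4 and 20.8 in LM. Ddit3, CHOP, the death–linked factor of the stress response, was 79.8 in HM_Ctrl and 148 in HM_DFX, 1.85-fold (1.76 to 1.95) higher and under the 2-fold limit, and went from 6.05 to 111 in LM. Irs2, an adaptor of the insulin receptor, was 7.74 in HM_Ctrl and 15.4 in HM_DFX and fell from 16.1 to 5.49 in LM. Sumo2, a small modifier, rose from 7.95 to 31.3 and went from 12.4 to 6.34 in LM, with 21.3% of its sequence shared. Ifit3 rose in both, from 1.13 to 13.2 in HM and from 0.474 to 67.6 in LM, with 61.8% shared. No test of these differences was possible.

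**Figure D5:**
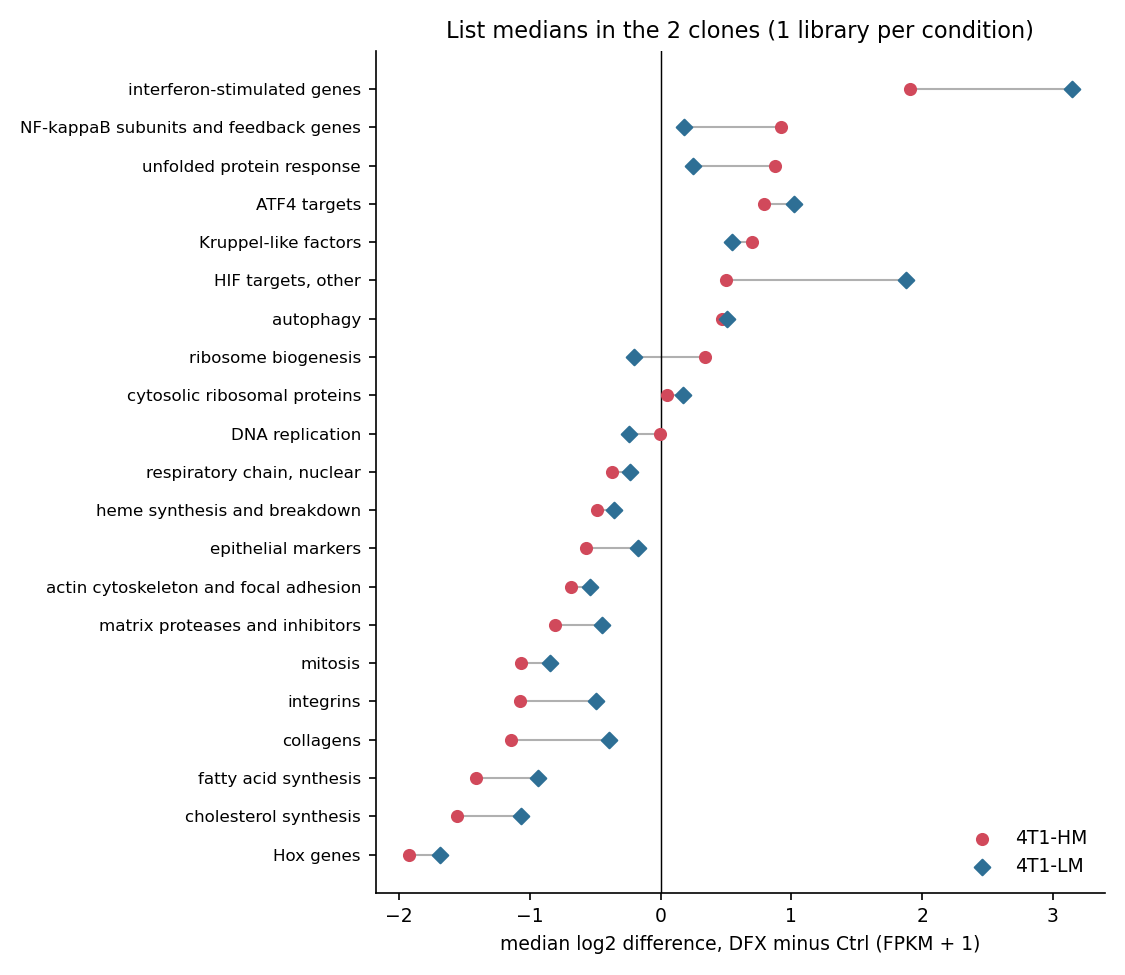
Median log2 difference of DFX from control for 21 gene lists in 4T1–HM (circles) and 4T1–LM (diamonds). The list of other HIF targets lies at 0.50 in HM and 1.88 in LM, and NF-κB genes at 0.92 and 0.18.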

How the data were processed

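RNA of 4 cultures of the 4T1–HM and 4T1–LM clones was sequenced, 1 library a condition, and samples were grouped by their labels. The authors trimmed reads with Trimmomatic, checked them with FastQC and aligned them to mm10 with HISAT2, and the submitters' processing notes also name featureCounts. Versions and the use of strand are not given in the sources used here. The deposited values are FPKM, not counts. The authors also called genes with edgeR, which was not repeated here, since single libraries give no spread.

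Genes that reached an FPKM of 1 in HM_Ctrl or HM_DFX were compared as log2((HM_DFX + 1)/(HM_Ctrl + 1)), with a pseudocount of 1 and a 2-fold limit, in Python 3.11.15 with pandas 2.3.3 and scipy 1.17.1. Fragments were recovered from the FPKM, exon lengths of GENCODE M21 and the total of each library, for exact Clopper–Pearson intervals at 95%. For 3315 genes these lengths gave no whole fragments, and a length that did was solved from the FPKM. The fragment numbers and intervals of those genes rest on that assumed length. Alternatives were a pseudocount of 0.1, an FPKM minimum of 5 or none, a mean FPKM of at least 1, scaling to the median ratio or 75th percentile, protein–coding genes only, and limits of 1.5-fold and 4-fold. The calling was tested on simulated data with planted changes and counting error only. The simulation held no variation between cultures, so it cannot tell how far the calls would repeat.

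Members and gene lists were chosen with earlier results of these data known. Named were the 15 protein–coding genes that rose most and the 15 that fell most, where the higher library reached an FPKM of 10, up to 4 largest changes of each list and a set of genes of defining role, the 4 largest rises and falls of other biotypes with an FPKM of at least 5, the 5 widest gaps between the clones each way, and the 10 most abundant genes. Some genes that this rule names are not reported here. Others were chosen after their values were seen. Promoter sequences are from RefSeq on GRCm38.p6.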

Additional observations from a re-analysis of the deposited data

Results flagged for a closer look

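The genes below were named above or stand among the widest gaps between the clones, and moved past 2-fold in opposite directions in the 2 clones, with 1 library behind each value. The difference between the clones was not tested for any of them. Egln3, the prolyl hydroxylase, went from 85.9 to 32.8 in HM and from 29.8 to 71.7 in LM, so that its log2 difference in HM minus that in LM was −2.60. Slfn2, a Schlafen gene that interferon induces in leukocytes, went from 8.83 to 2.89 and from 2.33 to 10.5, a gap of −3.12. Gapdh went from 22.9 to 10.7 and from 7.06 to 16.8, a gap of −2.18, with 27.2% of its sequence shared with other genes, and with median–ratio scaling its fall in HM did not reach 2-fold. The histone gene Hist1h2bc went from 6.17 to 14.9 and from 6.13 to 1.30, a gap of 2.78, with 32.6% of its sequence shared.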

How the results depend on the processing

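No value past 2-fold changed sign under the alternatives run, and medians near 0 that did are given above, except that of 7 HIF subunits and oxygen sensors, which went from −0.0095 to 0.11 with median–ratio scaling. At a 1.5-fold limit 2012 genes rose and 3238 fell, and at 4-fold 111 and 166. The median of all genes was −0.031 with no filter, −0.051 with an FPKM of at least 5 and −0.0027 with median–ratio scaling. The interferon median was 2.54 with a pseudocount of 0.1. The collagen median was −0.012 with no filter and −1.03 with median–ratio scaling, and the Hox median was −1.39 with no filter, which brings in genes at or near 0. Of 60 list medians, 7 moved outside the order–statistic interval over the genes of the list with no filter and 6 with median–ratio scaling, and 55 of 85 single–gene values left their counting interval with that scaling. Leaving out a replicate was not possible with 1 library a condition. No paired analysis was possible because each group holds 1 library. Counting intervals cover no variation between cultures, so how far these differences repeat cannot be read from these libraries.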

Other observations

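Host genes of small nucleolar RNAs, transcripts whose introns carry the guides for modification of ribosomal RNA, were mostly higher in HM_DFX. The list was chosen after these values were seen. Of 17 genes 12 were measured, 7 of which rose and 1 fell, with a median of 1.26 in HM and 0.81 in LM. Snhg12 went from 17.4 to 133, 7.66-fold (6.95 to 8.46) higher, Snhg15 from 12.8 to 109, 8.48-fold (7.504 to 9.62) higher, and Gas5 from 38.7 to 106. Snhg1 went from 20.9 to 84.4, with 20.9% of its exons over a gene on the same strand. Snhg3 was the fall, from 13.02 to 5.37, with 71.5% of its exons over a gene on the opposite strand. These transcripts are degraded when they are translated, as general background.

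Terms of the gene annotation were also chosen after their values were seen, and their shares stand beside 7.22% of all genes higher and 12.9% lower. Of 83 genes with the term extracellular matrix 6 rose (7.23%) and 34 fell (41.0%), with a median of −0.81 in HM and −0.34 in LM, and of 51 basement membrane genes none rose and 21 fell (41.2%), with medians of −0.69 and −0.16. Of 49 genes with the term response to virus 17 rose (34.7%) and 2 fell (4.08%).

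By GC content of their exons, protein–coding genes below 44.3% GC had a median of −0.00 with 7.76% lower and those above 56.0% a median of −0.31 with 19.5% lower, against medians of −0.04 and −0.08 in LM. On the X chromosome 9 of 347 genes (2.59%) rose and 47 (13.5%) fell, beside 7.22% and 12.9% of all genes. The cause of either was not tested.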
